A study of Nothobranchius furzeri with 20 samples.

Results

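The widest dose step of the study sets skin of fish given rotenone at 10% of LC50 against skin of fish given 0.1%, both at 9 weeks of age. The fish were males of the turquoise killifish Nothobranchius furzeri, strain MZM-04/10p. Members were taken by the dose and age in their labels, which gave 5 libraries at 10% and 5 at 0.1%, 10 of the 20 libraries of the series. The remaining libraries come from fish of the same strain and sex at 1% of LC50, 5 at 9 weeks and 5 at 27 weeks, so that rotenone was given in all 4 groups used here. LC50, of which each dose is a percentage, is the median lethal concentration. RNA sequencing measured the reads on 26739 genes. The 10% libraries stand in a count table with the 1% libraries of both ages, and the 0.1% libraries in a separate table. Dose and table therefore coincide and cannot be told apart. The same holds for 0.1% against each of the other groups. Fish without rotenone were not analysed here.

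Rotenone is a plant compound that blocks complex I, the enzyme through which NADH passes electrons into the mitochondrial respiratory chain. Blocking it lowers the yield of ATP from respiration and lets electrons reach oxygen early, which makes superoxide. In a fish, skin is a mixed tissue of a living, mucus-covered epidermis, scales, pigment cells, connective tissue, nerves and vessels, and a piece of it can carry muscle. The deposited files give genes by identifier alone, and 0 of the 26739 identifiers matched the RefSeq gene table of assembly NfurGRZ-RIMD1. No gene can therefore be given a name or a role, the label of skin could not be checked against marker genes, and only the 2 clearest identifiers in each direction are printed.

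Library totals lay between 21977356 and 29017737 reads over the 10 libraries, and 20868 to 21932 genes had at least 1 read. Depth overlapped between the groups. Replicate numbers only name the libraries. The labels leave unsaid whether each library is a separate fish, and all p-values below refer to library-to-library spread, which may be technical. Replicates 1 and 4 at 0.1% and replicates 1 and 2 at 10% stood apart from the other libraries of their groups, and several results that rest on them are given with and without them. Other results, among them the SDs within groups and the count from DESeq2, are given with all libraries alone. The 10 most abundant genes took 13.0% to 25.3% of reads at 0.1% and 19.6% to 23.1% at 10%. In a piece of tissue, fewer cells of a type and less RNA per cell cannot be told apart.

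No gene passed the test between these doses. Of 18808 genes tested, 0 (0%) had an adjusted p under 0.05 with edgeR's quasi-likelihood test and Benjamini-Hochberg adjustment. At an unadjusted p under 0.05 there were 3855 genes (20.497%), 1750 higher at 10% (9.3%) and 2105 lower (11.2%). Without replicate 1 at 0.1% the unadjusted count was 2540, 1391 higher and 1149 lower. At an adjusted p under 0.05, edgeR called 0 genes without replicates 1 and 4 at 0.1%, 7 without replicates 1 and 2 at 10% and 1, lower at 10%, without replicate 2 at 0.1%. The smallest adjusted p was 0.130. It was shared by 66 genes whose unadjusted p differed, since the adjustment can give such genes the same value. By adjusted p, 0 genes were under 0.1, 1338 were under 0.15 and 2869 under 0.2. Limma's voom with sample quality weights, fitted to the 10 libraries alone, called 0 genes. DESeq2, run on the same genes as an alternative, called 930 of the 17537 to which it gave an adjusted p (5.3%), 410 higher and 520 lower. Of those 930 genes, 277 (29.8%) had libraries at both doses that did not overlap, beside 519 of all 18808 genes tested (2.76%). In 253 (27.2%) a single library held over 50% of the summed CPM of the higher group, beside 1540 of all genes tested (8.19%). CPM is the read count scaled by library size and TMM factor.

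How far the spread limits detection was gauged from a standard error (SE) per gene in the same fit. It is the absolute log2 difference divided by the square root of the test's F statistic. The limits below hold this SE fixed for other differences and are approximate. The median gene had an SE of 0.23 on the log2 scale, so that a difference of 0.49, or 1.402-fold, reached an unadjusted p of 0.05. A gene called alone would need a p of 2.66e-06, which at the median SE asks for a log2 difference of 1.54, or 2.91-fold. The smallest p observed was 1.25e-05. A 2-fold difference would have been called alone in 4102 genes (21.8%) and would have reached an unadjusted p of 0.05 in 16169 (86.0%). The median absolute log2 difference was 0.25, a fold of 1.19. In this fit all 4 groups share the estimate of the spread, and the limits above were not computed for the 10 libraries alone. The other dose steps therefore had nearly the same median SE, 0.23 for 10% against 1% and 0.23 for 1% against 0.1%. Their median absolute log2 differences were 0.26 and 0.32, and their calls 1326 (7.05%) and 3473 (18.466%) of 18808 genes. Their smallest p-values were 2.21e-07 and 4.01e-09. Every pair of these 3 comparisons shares a group of libraries, and the differences between their counts were not tested. In a fit of the 10 libraries alone the degrees of freedom fell from a median of 18.7 to 10.4, the SE of a gene was a median of 1.07 times that of the larger fit, and 2600 of 18087 genes had an unadjusted p under 0.05, with a smallest adjusted p of 0.258.

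The distance of a library from its group is given here as the root mean square difference from the mean of the other 4 libraries, in log2 CPM over the 18808 genes. At 0.1% the distances were 1.05, 0.735, 0.713, 0.902 and 0.732 in replicates 1 to 5. At 10% they were 0.890, 0.772, 0.737, 0.509 and 0.548. Replicates 1 and 4 at 0.1% and replicate 1 at 10% were the farthest from their groups, and the ranges of the groups overlapped. The mean was 0.826 ± 0.146 at 0.1% and 0.691 ± 0.160 at 10% (SD, n = 5), and the difference was not past the threshold (exact permutation p = 0.222, two-sided, and 0.278 after Benjamini-Hochberg adjustment for 5 comparisons). With the median absolute difference in place of the root mean square, every library at 0.1% lay above every library at 10% (exact permutation p = 0.00794, the smallest that 5 against 5 can give). Libraries at 1% and 27 weeks lay at 0.472 ± 0.0335 (n = 5), below each of the 10 libraries, and both doses differed from them (exact permutation p = 0.00794 each, adjusted 0.0198). At 1% and 9 weeks the mean was 0.626 ± 0.0882 (n = 5). The 0.1% group was past the threshold against it (exact permutation p = 0.0238, adjusted 0.0397) and the 10% group was not (exact permutation p = 0.452, adjusted 0.452). Distances within a group share libraries, so these p-values treat as separate what is partly joint.

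**Figure D1:**
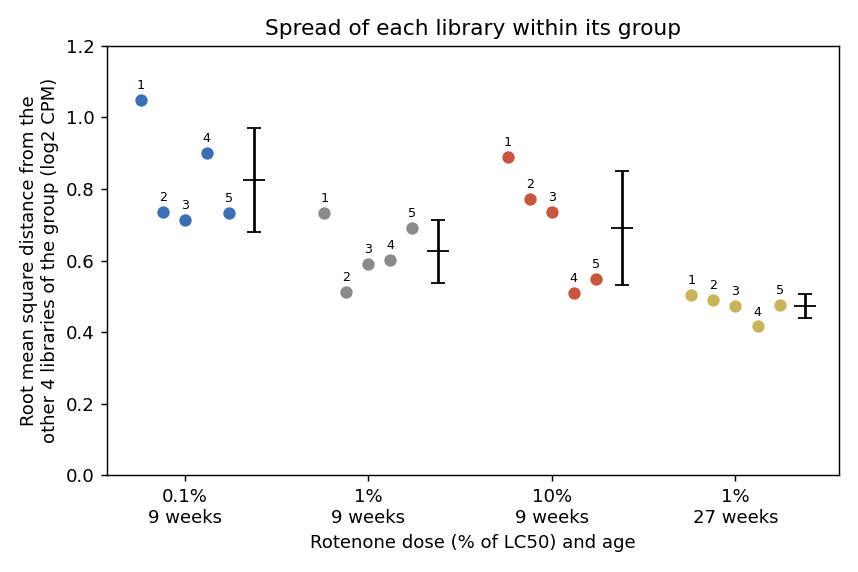
Root mean square distance of each library from the other 4 of its group, in log2 CPM, for the 4 groups; points are libraries numbered by replicate, the short bar is the mean and the whiskers are 1 SD. Replicate 1 at 0.1% is the highest at 1.05, and the 5 libraries at 27 weeks lie below all 10 libraries at 0.1% and 10%.

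The median SD within a group was 0.39 log2 CPM at 0.1% and 0.29 at 10%, beside 0.34 at 1% and 0.25 at 27 weeks. An SD over 1 was found for 2033 genes (10.8%) at 0.1%, 1493 (7.94%) at 10%, 1140 (6.06%) at 1% and 482 (2.56%) at 27 weeks. The SD at 0.1% was the larger of the pair in 12048 genes (64.1%). The common biological coefficient of variation, the spread beyond counting error that edgeR estimates for a group fitted alone, was 47.0% at 0.1%, 42.7% at 10%, 34.8% at 1% and 24.2% at 27 weeks. Genes of a library vary together, so these shares carry no test. These measures of spread were not recomputed without the libraries that stood apart.

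Most of the variation among the 10 libraries lay inside the groups. Of the summed squared deviations in log2 CPM, 50.6% lay within 0.1%, 36.1% within 10% and 13.3% between the doses. The share between the doses was 20.53% without replicates 1 and 4 at 0.1%, 13.02% without replicates 1 and 2 at 10% and 30.9% without all 4. Leaving out libraries also changes this share through the smaller number of libraries. The leading principal components followed a few libraries. On the first, with 40.7% of the variance, replicates 1 and 4 at 0.1% stood at 119.8 and 99.9, replicate 3 at 10% at 24.7, and the other 7 libraries between -44.8 and -22.7. On the second, with 19.6%, replicates 1 and 2 at 10% stood at 96.4 and 50.5 and the other 8 between -37.9 and 11.51. The third, with 10.8%, set the same libraries at opposite ends, at -46.7 and 78.6. The doses did not overlap on the fourth, which held 7.496%. It placed the 10% libraries between -6.36 and 47.5 and the 0.1% libraries between -32.9 and -10.3 (exact permutation p = 0.00794, two-sided and the smallest possible, and 0.0714 after Benjamini-Hochberg adjustment for the 9 components). On the remaining 8 components the exact permutation p ran from 0.238 to 0.968. Sample quality weights, which limma's voom sets from how well a library follows its group, gave 0.315 and 0.409 to replicates 1 and 4 at 0.1% and 0.587 and 0.888 to replicates 1 and 2 at 10%, and between 1.21 and 2.01 to the other 6.

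The genes with the largest differences were mostly genes high in the libraries just named. Choosing genes by the fold between groups favours genes with a single very high library, while all genes tested were not so chosen. The shares below therefore carry no test. A fitted difference over 2-fold was found for 1688 genes (8.97%), 681 higher and 1007 lower at 10%. This count changed with the tool, the unit, the filter and the libraries fitted. In the edgeR fit of the 10 libraries alone it was 1417, 594 higher and 823 lower. Limma's voom with sample quality weights, also on the 10 libraries alone, gave 605 genes. There the split turned, to 414 higher and 191 lower. Limma on log2 RPKM of the 10 libraries gave 405 genes with a pseudocount of 1 and 909 with 0.1. On all libraries, edgeR with a minimum of 50 reads in 5 libraries gave 869, and edgeR without the filter 3678. Of the 1007 lower genes, 817 (81.1%) had their highest level at 0.1% in replicate 1, beside 31.1% of all genes tested. In 813 (80.7%) replicates 1 and 4 were the highest pair, beside 25.53% of all genes tested. Of the 681 higher genes, 617 (90.6%) had their highest level at 10% in replicate 1 or 2, beside 42.4% of all genes tested. A single library held over 50% of the summed CPM of the higher group in 1069 of the 1688 genes (63.3%) and in 2.75% of the genes within 2-fold. An unadjusted p under 0.05 was reached by 1333 of the 1688 genes (79.0%), but only 59 (3.495%) had doses that did not overlap. Among genes within 2-fold, 2.69% did not overlap. Over 8-fold lay 161 genes higher and 113 lower, and 3 of these 274 did not overlap. Without replicates 1 and 4 at 0.1% the genes over 2-fold numbered 1297 higher and 266 lower. Without replicates 1 and 2 at 10% they numbered 198 higher and 1516 lower. Without all 4 libraries they numbered 731 higher and 438 lower.

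Of the genes tested, 519 (2.76%) separated all 10 libraries, in that the CPM ranges of the doses did not overlap. All 5 libraries at 10% lay above all 5 at 0.1% in 268 genes (1.42%) and below them in 251 (1.33%). Their differences were modest. The median fold was 1.3998 among the higher genes and 1.49 among the lower, with 15 and 44 genes over 2-fold, and the smallest fitted difference was 1.09-fold. The gap between the nearest libraries of the doses had a median of 0.06 log2 among higher and 0.08 log2 among lower genes. It was at least 0.1 log2 in 184 genes and at least 0.5 log2 in 9, 2 higher and 7 lower. The boundary was crowded: 94 genes were apart by under 0.02 log2, and 100 overlapped by less than that. Of the 519 genes, 480 (92.5%) had an unadjusted p under 0.05, and adjusted p-values from edgeR ran from 0.130 to 0.514. Replacing TMM by RLE scaling gave 514 genes, 487 of them among the 519, and upper quartile scaling gave 514, with 438 shared. On the deposited RPKM values there were 354 genes, 134 higher and 220 lower, and 174 were shared. The divisor of those values changed between genes, with an SD of at least 0.197 log2, which is more than the median gaps above. Its effect on the count was not tested.

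**Figure D2:**
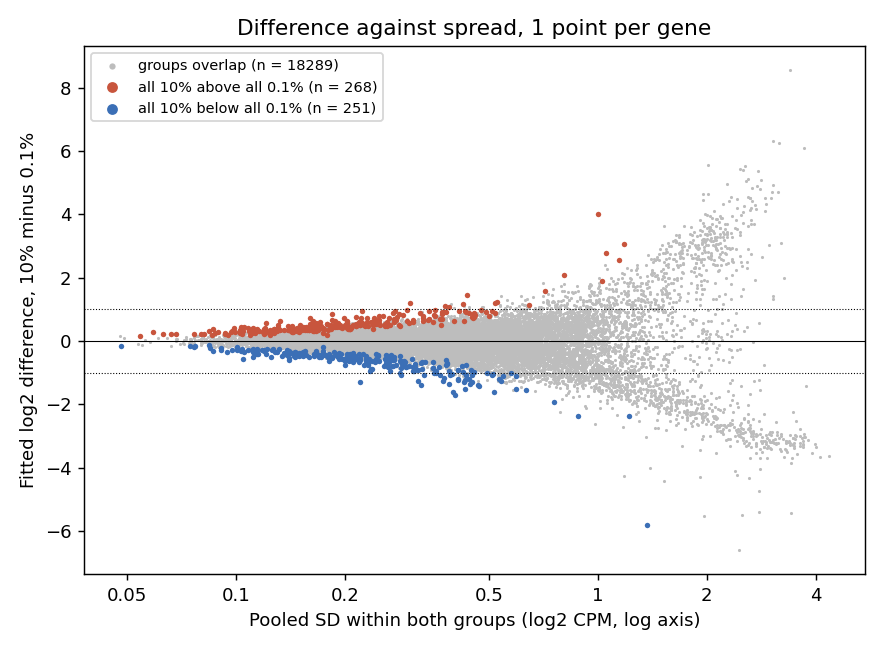
Fitted log2 difference between 10% and 0.1% against the pooled SD within both groups in log2 CPM (log axis), 1 point per gene; coloured points are the 268 genes with all 10% libraries above and the 251 with all below the 0.1% libraries, and dotted lines mark 2-fold. Genes that separate the libraries lie at the outer edge of the low-spread part, while of the 1688 genes over 2-fold only 59 are coloured.

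Separation went with a small spread, which enters its definition. Among the 2938 genes with a pooled SD within groups under 0.2 log2 CPM, 240 (8.17%) did not overlap, beside 215 of 7062 (3.04%) from 0.2 to 0.4, 55 of 6030 (0.912%) from 0.4 to 0.8 and 9 of 2778 (0.324%) from 0.8 upwards. In the last class 1121 genes (40.4%) had an unadjusted p under 0.05, against 18.7% in the first, and the median absolute log2 difference was 1.03 against 0.13. By abundance, the share that did not overlap was 1.19% of 3608 genes with a mean log2 CPM under 1, 2.41% from 1 to 3, 3.11% from 3 to 5, 3.97% from 5 to 7 and 3.72% from 7 to 10. It was 2 of 133 genes (1.504%) from 10 upwards. The median mean log2 CPM was 4.11 in the higher and 4.36 in the lower genes, beside 3.46 over all genes tested. Switching between no reads and reads played almost no part. A single gene had reads in all 5 libraries at 10% and none at 0.1%, with 8 reads in all, and 0 genes had the reverse.

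Some genes overlapped between the doses only until 1 library was left out. Fewer libraries overlap less by construction, so some such genes are found for any library left out. The counts are of the 18808 genes tested, of which 519 did not overlap with all 10 libraries in place. Leaving out replicate 3 at 0.1% ended the overlap for 522 genes and leaving out replicate 2 at 10% for 485. Replicate 4 at 0.1% followed with 284 and replicate 1 at 10% with 266. For replicate 1 at 0.1%, the farthest from its group, the count was 161. The other 5 libraries had counts of 136 to 248 genes. A gene can be counted under a library of each dose, so the counts do not add up to a number of genes. Directions differed among libraries. Replicate 4 at 0.1% kept back 226 genes otherwise lower at 10% and 58 otherwise higher, and replicate 5 at 0.1% kept back 59 and 138. Replicate 3 at 0.1% was near even, with 244 and 278.

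**Figure D3:**
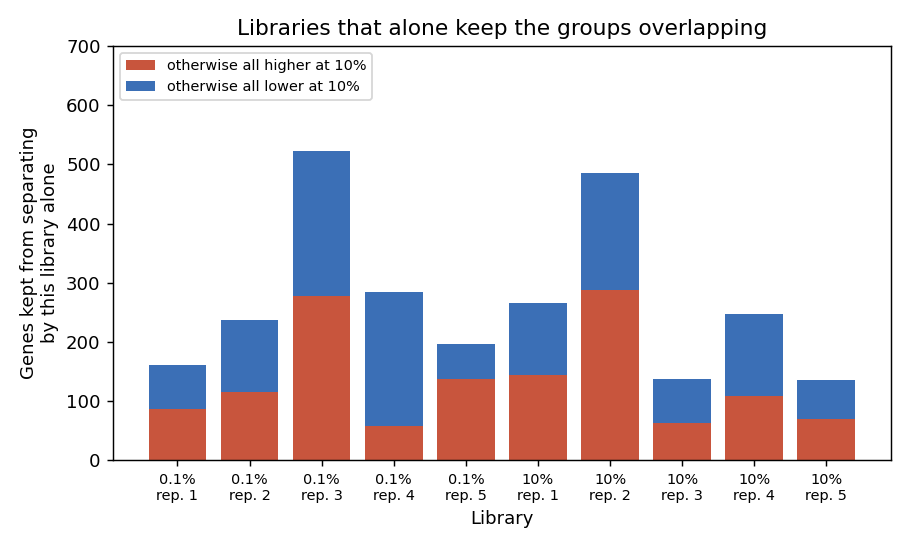
Number of genes, of the 18808 tested, whose doses overlap over all 10 libraries but not once that library is left out, for each of the 10 libraries. Leaving out any library lowers overlap by construction. Bars are split by the direction the other 9 libraries show, and a gene can be counted under a library of each dose. Replicate 3 at 0.1% (522 genes) and replicate 2 at 10% (485) keep back the most, and replicates 3 and 5 at 10% the fewest (137 and 136).

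The 2 genes named in each direction have the widest gap between the doses among genes whose mean log2 CPM was 1 or more, a condition met by 247 of the higher and 229 of the lower genes. That their doses do not overlap was a condition of the choice. The next gene in order had a gap of 0.35 log2 among the higher and 0.65 log2 among the lower.

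Nfu_g_1_016622 was at 70.3, 12.01, 6.07, 9.95 and 5.50 CPM in replicates 1 to 5 at 10% and at 2.66, 2.52, 3.12, 3.47 and 3.20 CPM at 0.1%. The 0.1% libraries were tight and the 10% libraries were not, replicate 1 lying far above the other 4. Means were 20.8 ± 27.8 and 2.99 ± 0.391 CPM (SD, n = 5), and the log2 difference was 2.79 (SE 0.56, edgeR adjusted p = 0.130). The gap between the nearest libraries was 0.65 log2, or 1.57-fold. Without replicate 1 at 10% the log2 difference was 1.49 with a smaller SE of 0.27 (edgeR adjusted p = 0.125). The difference was 1.59 with limma's voom and 1.33 with limma on log2 RPKM (pseudocount 1). Over the 24 alternatives its adjusted p ran from 0.000598 with DESeq2 to 0.487. The groups that took no part in the choice lay at 3.94 to 9.80 CPM at 1% and 4.97 to 8.81 CPM at 27 weeks. All 10 of those libraries were also above each library at 0.1%, which the choice of a gene low at 0.1% favours. Among the 268 higher genes, all 5 libraries at 1% lay above the 0.1% range in 44.8%, beside 5.08% of all genes tested. At 27 weeks these shares were 32.8% and 5.72%.

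Nfu_g_1_004386 was at 3.86, 3.01, 2.82, 2.74 and 3.38 CPM at 10% and at 1.69, 2.07, 1.87, 1.97 and 2.02 CPM at 0.1%. These rest on 61 to 82 and 42 to 59 reads per library. Both groups were tight, which the choice by gap favours, and no library stood apart. Means were 3.16 ± 0.459 and 1.92 ± 0.149 CPM (n = 5), with a log2 difference of 0.72 (SE 0.21, edgeR adjusted p = 0.137) and a gap of 0.39 log2. The gene lay at 2.53 to 4.79 CPM at 1% and 2.78 to 5.78 CPM at 27 weeks, again above every library at 0.1%. For both of the higher genes named, the 0.1% group was thus the lowest of the 4, and the 10% range overlapped those at 1% and 27 weeks. Both genes were chosen as low in every library at 0.1%, which favours that order. The groups at 10%, 1% and 27 weeks share a count table that the 0.1% group does not, so dose and table cannot be told apart here.

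Nfu_g_1_012366 was at 1.65, 1.57, 1.71, 1.64 and 1.78 CPM at 10% and at 5.40, 3.42, 4.86, 3.53 and 3.48 CPM at 0.1%, from 35 to 42 and 74 to 134 reads. The 10% libraries were almost level, and the 0.1% libraries had replicates 1 and 3 above the other 3. The choice by gap favours such closeness. With so few reads, sampling alone spreads libraries, so it cannot be read as steady expression. Means were 1.67 ± 0.0774 and 4.14 ± 0.926 CPM (n = 5), and the log2 difference was -1.31 (SE 0.34, edgeR adjusted p = 0.134), and -0.77 with limma on log2 RPKM (pseudocount 1). Its gap of 0.92 log2, or 1.89-fold, was the widest of the 519 genes. The 1% libraries spanned this gap, from 0.915 to 4.98 CPM, but only replicate 5, with 20 reads, lay below it. Those at 27 weeks also spanned it, from 1.53 to 4.17 CPM.

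Nfu_g_1_000330 was the most abundant of the 4, at 31.6, 37.7, 29.4, 36.3 and 26.8 CPM at 10% and at 96.4, 66.0, 66.3, 104.6 and 158 CPM at 0.1%. Means were 32.4 ± 4.60 and 98.2 ± 37.6 CPM (n = 5), with a log2 difference of -1.60 (SE 0.48, edgeR adjusted p = 0.137) and a gap of 0.81 log2. Every library at 10% was low, and replicate 5 was the highest at 0.1%. At 1% the gene ran from 20.0 to 148 CPM, with replicates 1 and 5 below every library at 10% and the other 3 above, and at 27 weeks from 39.4 to 169.6 CPM, above every library at 10%.

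**Figure D4:**
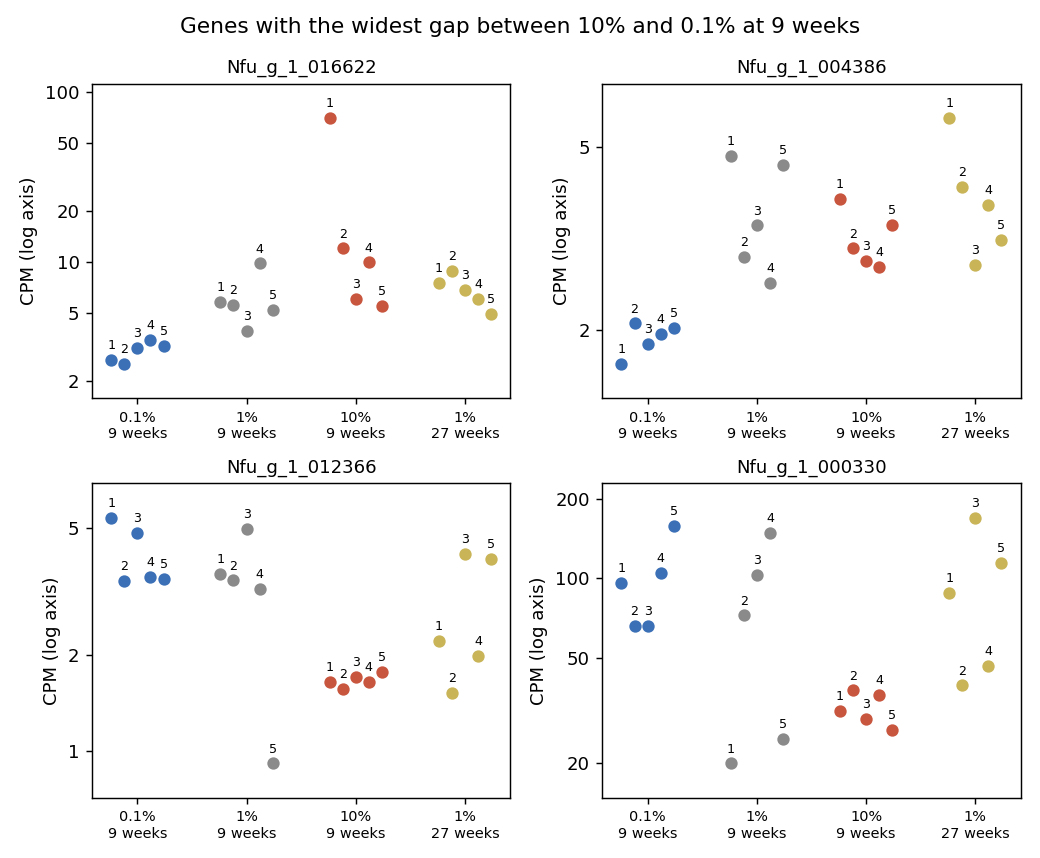
CPM (log axis) of the 4 named genes in each library of the 4 groups, points numbered by replicate. The doses 0.1% and 10% do not overlap in any panel, by the rule of choice. At 1% the genes lower at 10% lie on both sides of the gap, Nfu_g_1_000330 from 20.0 to 148 CPM. For Nfu_g_1_012366 only replicate 5 at 1% lies below the gap.

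The libraries at 1% and 27 weeks took no part in choosing the 519 genes and show where these genes lie in other libraries. The bounds are set by the chosen groups. All of these libraries share the count table of the 10% libraries, so a position nearer to 10% cannot be told apart from an effect of table. In the 268 higher genes the mean log2 CPM at 1% and 9 weeks lay between the doses in 132 (49.3%), beyond 10% in 110 (41.0%) and beyond 0.1% in 26 (9.70%). In the 251 lower genes it lay between in 139 (55.4%), beyond 10% in 100 (39.8%) and beyond 0.1% in 12 (4.78%). Over all genes tested the shares were 27.2%, 43.9% and 28.9%. At 27 weeks the mean lay between the doses in 176 of the higher (65.7%) and 144 of the lower genes (57.4%), beside 26.7% of all genes. A choice of genes without overlap sets the bounds apart, which favours a mean between them. The mean at 1% was nearer to 10% than to 0.1% in 191 of the higher (71.3%) and 194 of the lower genes (77.3%), beside 58.6% of all genes. In 0 of the 519 genes were all 15 libraries at 9 weeks in the order of dose without overlap. For that, the 5 libraries at 1% would have to fit into gaps with a median of 0.06 and 0.08 log2. The median SD at 1% over all genes was 0.34 log2, so this count was nearly set beforehand and says little about order by dose. At 27 weeks the mean was nearer to 10% in 187 of the higher (69.8%) and 112 of the lower genes (44.6%), beside 54.8% of all genes.

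In reads, the 268 higher genes took 1.65% ± 0.0338 of a library at 10% and 1.35% ± 0.0843 at 0.1% (SD, n = 5), and 1.73% ± 0.100 at 1% and 1.83% ± 0.137 at 27 weeks. The 251 lower genes took 0.736% ± 0.0277 at 10% and 1.23% ± 0.271 at 0.1%, and 0.911% ± 0.175 at 1% and 1.14% ± 0.159 at 27 weeks. On the higher genes all 10 libraries at 1% and 27 weeks lay above each library at 0.1%. Those 10 libraries also stand in the count table of the 10% libraries, apart from the 0.1% libraries. On the lower genes the 1% libraries overlapped both doses, and the 27-week libraries lay above every library at 10%. The choice of genes set the difference between 10% and 0.1%, which carries no test. By taking genes low at a dose, the choice also favours other groups lying above that dose. It further favours genes with a small spread at 10% and 0.1%, so the SDs of these sums are not compared with those of the other groups.

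**Figure D5:**
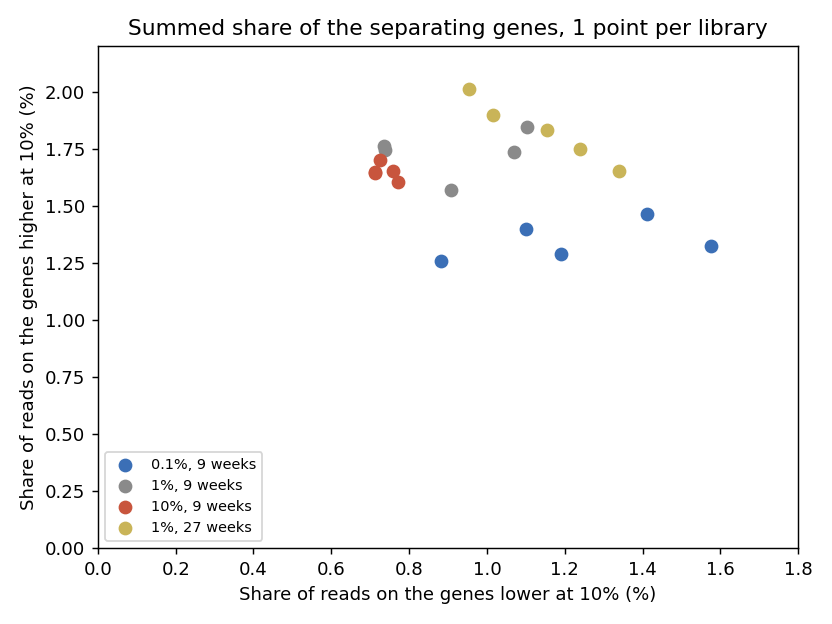
Share of each library's reads on the 268 genes higher at 10% (vertical, %) and on the 251 genes lower at 10% (horizontal, %), 1 point per library in 4 groups. The 10% libraries lie around 0.736% and 1.65%, and the 0.1% libraries lie lowest in the vertical direction, at 1.26% to 1.47%, a position that the choice of genes favours.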

How the data were processed

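Skin RNA was sequenced from TruSeq RNA Library Prep Kit v2 libraries, per the labels' protocols. Tools named in the submitters' processing notes are featureCounts 1.4.6-p4, STAR 2.4.1d and CASAVA 1.8.2. The sources used here do not state build, annotation or strand setting. The authors deposited raw counts per gene, which were joined by gene identifier across both count tables. The authors also deposited RPKM values, used in alternatives alone. These are not the counts divided by a single total per library. The divisor changed between genes in a cycle of 35 rows. In the 9 pairs checked its SD was at least 0.197 log2 over all rows and at most 0.000159 log2 within a position of the cycle. Replicate 1 at 0.1% stands with equal RPKM values for all 26739 genes in both RPKM tables and was used once. Columns that match no sample of the labels, 10 of counts and 9 of RPKM, were not used. Library totals of the series ran from 21770720 to 29017737 reads. No pair of libraries within either dose differed by as little as sampling noise (chi-square per degree of freedom at least 32.6).

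Groups follow the labels, and replicates are numbered in accession order. In R 4.3.3, all 20 libraries were fitted with edgeR 4.0.16 (filterByExpr, TMM, glmQLFit and glmQLFTest, two-sided), with Benjamini-Hochberg adjustment over the 18808 genes kept and a threshold of 0.05. Log2 CPM used a prior count of 2. No table or batch term can be fitted, since dose and table coincide. Single values per library were compared with two-sided exact permutation tests. Genes named are the 2 in each direction with the widest gap between doses, among genes whose mean log2 CPM is 1 or more. Scripts were tested on simulated data. Alternatives were other scalings and filters, the 10 libraries alone, a robust fit, DESeq2 1.42.0 and libraries left out. Limma 3.58.1 on voom values and on log2 RPKM was a further alternative, fitted to the 10 libraries alone. The comparison and its lists were chosen with earlier results of these data known. Lists of pathway and cell type genes could not be counted, since identifiers matched no gene name. The components and variance shares were computed after the data were seen.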

Additional observations from a re-analysis of the deposited data

Results flagged for a closer look

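Nfu_g_1_016622 at 10% was 1 of the 20 sets of values tested, drawn from the 4 named genes and from measures taken per library. It was the only set in which a library stood far from the others by Dixon's criterion. Replicate 1 was at 70.3 CPM and the next library at 12.01 CPM, a gap of 0.899 of the range against a limit of 0.71. If values are normally distributed, chance alone flags about 1 in 20 such sets. For the named genes the criterion was applied to CPM and not to log2 CPM, on which a single high value weighs less. The flag may therefore depend on the scale. The same library was the highest at 10% for 366 of the 681 genes over 2-fold higher (53.7%), beside 23.1% of all genes tested, and without it the log2 difference of the gene was 1.49 in place of 2.79. A choice by fold favours genes with a single high library, so that share carries no test.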

How the results depend on the processing

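The count of 0 genes past the adjusted threshold was the same in 20 of 24 alternatives. DESeq2 called 930, leaving out single libraries gave 0 to 1, leaving out replicates 1 and 2 at 10% gave 7, and leaving out these with replicates 1 and 4 at 0.1%, an alternative chosen after seeing the data, gave 4. The unadjusted count of 3855 was 1645 and 1683 with limma on log2 RPKM (pseudocounts 1 and 0.1), 2501 without replicates 1 and 4 at 0.1% and replicate 3 at 10%, and 2540 to 4525 without single libraries. Its split of 1750 higher and 2105 lower became 1845 and 1166 without replicates 1 and 4 at 0.1%, and 598 and 1047 on RPKM with pseudocount 1. The 519 genes without overlap became 9 with a gap of at least 0.5 log2. Fewer libraries overlap less by construction: 657 to 1042 genes without single libraries, 1775 without replicates 1 and 4 at 0.1%, 1918 without replicates 1 and 2 at 10%, 2082 without replicates 1 and 4 at 0.1% and 3 at 10%, and 4482 without the 4 that stand apart. The difference in spread, -0.135, was -0.0961 with the median absolute deviation (exact permutation p = 0.00794) and -0.209 (exact permutation p = 0.0476, without replicate 3 at 0.1%) to -0.0477 without single libraries. The cause of the changes with tool, unit and spread measure was not tested. The RPKM values also differ from the counts by a divisor that changes between genes, so they are not a change of unit alone. The log2 differences of the 4 named genes kept their sign in all 24 alternatives, though Nfu_g_1_016622 ran from 1.26 to 3.06 and Nfu_g_1_012366 from -1.41 to -0.77, and passed the adjusted threshold in DESeq2 alone. No paired analysis was possible because the labels give no replicate numbers that the doses share.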
